A study of Mus musculus with 2 samples.

Results

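The genes of the major histocompatibility complex (MHC, called H2 in the mouse) and of antigen presentation are 45 of the 13319 genes named on the arrays, and 73 of 22690 probe sets read them, a probe set being a group of short oligonucleotides that gives 1 intensity for a transcript. A probe set was taken where every symbol the platform annotation gives it begins with H2-, or where its only symbol is B2m, Tap1, Tap2, Tapbp, Cd74, Ciita, Rfx5, Rfxank, Rfxap, Erap1, Ifi30, Cd1d1 or Mr1. No probe set was listed for Nlrc5 alone. The 73 probe sets comprised 35 for class I molecules, 14 for class II molecules, 10 for class I accessory proteins, 2 for class II accessory proteins, 7 for regulators, 4 for class I-like molecules outside the complex, and 1 for H2-Ke6, a steroid dehydrogenase that carries an H2 symbol only because of its place in the region. In 12 of them several H2 genes share the probe set.

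Total RNA of mouse bone was measured on 1 array for an allograft and 1 array for an autograft sample, both labelled as c57Bl/6 femur. Allografts come from another animal of the same species, whereas autografts are the animal's own tissue. The labels used here give no sex, age, time after grafting or number of animals, and do not say which strain was donor or host. Since each graft type has 1 array, every difference below lacks a replicate check and is described without a test, and the precision of each value is limited by that number.

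Class I molecules sit on nearly all nucleated cells with beta-2-microglobulin as their light chain and show peptides made in the cytosol to CD8 T cells. The peptides enter the endoplasmic reticulum through the Tap1 and Tap2 transporter and are loaded with the help of tapasin (Tapbp). Class II molecules are made mainly by B cells, dendritic cells and macrophages, are guarded by the invariant chain Cd74 until they reach endosomes, and show peptides from there to CD4 T cells. MHC molecules that differ between donor and host are the main targets of graft rejection.

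The promoters of these genes carry short elements that are known to control them: a Y box, an inverted CCAAT element that works with the RFX proteins and Ciita, and in class I genes a kappa B element followed by an interferon response element. The stretches of 5 member genes below, from 200 bases before to 50 bases after the transcription start, are shown to set a class II gene beside a class I gene. They are RefSeq sequences of GRCm38.p6, the C57BL/6J assembly. H2-Aa lies at chr17:34287774-34288023 on the minus strand, H2-Eb1 at chr17:34305667-34305916 on the plus strand, H2-K1 at chr17:34000298-34000547 on the minus strand, H2-D1 at chr17:35262894-35263143 on the plus strand and B2m at chr2:122147487-122147736 on the plus strand. Capitals mark matches on either strand to CTGATTGG, a Y box, to GGGGATTCC, a kappa B element, or to AANNGAAA, the core bound by interferon regulatory factors, where N is any base, and no matches overlap in these stretches.
H2-Aa: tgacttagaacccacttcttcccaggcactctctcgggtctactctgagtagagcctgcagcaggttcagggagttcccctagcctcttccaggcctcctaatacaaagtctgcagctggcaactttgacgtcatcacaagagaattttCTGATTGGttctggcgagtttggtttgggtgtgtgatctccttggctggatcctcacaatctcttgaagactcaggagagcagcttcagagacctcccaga
H2-Eb1: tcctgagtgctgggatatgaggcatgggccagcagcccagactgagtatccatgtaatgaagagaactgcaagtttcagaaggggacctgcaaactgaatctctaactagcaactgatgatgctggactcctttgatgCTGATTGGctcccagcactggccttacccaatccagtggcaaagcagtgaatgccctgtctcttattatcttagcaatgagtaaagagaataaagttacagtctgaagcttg
H2-K1: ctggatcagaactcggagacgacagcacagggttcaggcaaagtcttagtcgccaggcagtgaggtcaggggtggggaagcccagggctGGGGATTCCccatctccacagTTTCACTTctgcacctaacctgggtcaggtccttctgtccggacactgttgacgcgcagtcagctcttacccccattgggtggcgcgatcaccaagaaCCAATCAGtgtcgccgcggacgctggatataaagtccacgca
H2-D1: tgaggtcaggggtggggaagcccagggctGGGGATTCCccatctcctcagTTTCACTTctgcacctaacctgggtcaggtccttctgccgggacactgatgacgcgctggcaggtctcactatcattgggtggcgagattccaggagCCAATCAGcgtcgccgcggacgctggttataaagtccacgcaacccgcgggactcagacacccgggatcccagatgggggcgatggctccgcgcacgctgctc
B2m: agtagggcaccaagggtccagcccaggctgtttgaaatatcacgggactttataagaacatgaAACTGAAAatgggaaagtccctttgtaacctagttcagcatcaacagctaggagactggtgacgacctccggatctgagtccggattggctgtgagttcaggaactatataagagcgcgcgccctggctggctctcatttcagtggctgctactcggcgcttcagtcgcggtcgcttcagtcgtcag

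Of the 45 symbols, 29 had a promoter window of 300 bases in the table, 250 before the start and 50 after it. The Y box letters were found in 12 of the 29 windows (41.4%), against 4.32% of 27025 promoters of all genes. Among class I genes they were in 8 of 14 windows, H2-K1 and H2-D1 included, and among class II genes in 3 of 6, those of H2-Aa, H2-Eb1 and H2-Oa. Tap1 had them too. The kappa B letters were found in 4 class I windows, those of H2-K1, H2-D1, H2-Q6 and H2-Q7, in 0 of 6 class II windows and in 0.259% of all promoters. The interferon response letters were found in 20 of the 29 windows (69.0%), against 24.2% of all promoters. They were in 13 of 14 class I windows and in 2 of 6 class II windows, those of H2-Aa and H2-Oa. The other windows with them were those of B2m, Erap1, Rfx5, Mr1 and H2-Ke6. The letters were settled on after several forms of these elements had been searched in the same windows, and the interferon core is a shorter form of one tried before it, which can only match more often. The counts therefore describe the letters in these windows and nothing further.

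Neither class as a whole stood far from the bulk of the arrays. The question was whether the level of MHC transcripts was different in the allograft. Intensities are the deposited ones, and the floor is 175.2, the median over all non-control probe sets of both arrays. Values below it were set to it before the log2 ratio of allograft over autograft was taken. Of the 73 probe sets, 37 exceeded the floor on both arrays, 1 on the allograft array alone and 2 on the autograft array alone. The remaining 33 were below it on both, and their intensities ran from 2.5 to 171.4. The 40 above the floor on at least 1 array make up 54.8% of the members, against 53% of all 22626 non-control probe sets.

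Of these 40 probe sets, in 2 the allograft value was at least 2-fold that of the autograft, where the share over all 11987 probe sets above the floor was 1.14%. They were 1 of the 2 probe sets of B2m and 1 of the 3 of H2-Ab1, the class II A beta chain. No member was at least 2-fold lower, against 0.742% of all probe sets. At 1.5-fold, 4 members were higher and 1 was lower, against 4.71% and 6.36% of all. The ratio was above 0 in 21 members and below 0 in 19, where 42.5% of all probe sets were above 0 and 57.4% below. The median log2 ratio was 0.01 over the members and -0.06 over all probe sets. With counts this small the shares of the members cannot be told from the background.

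**Figure D1:**
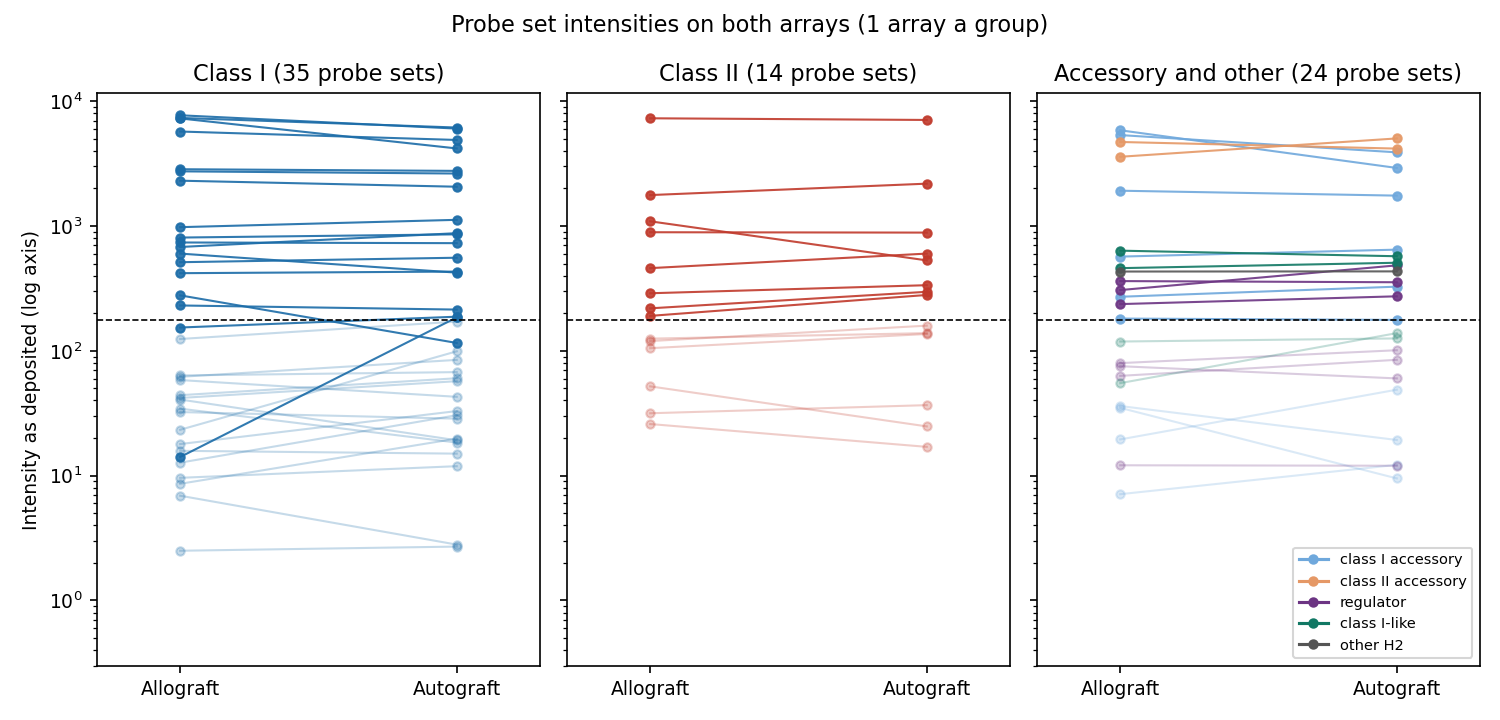
Deposited intensity (log axis) of each of the 73 probe sets on the allograft and the autograft array, 1 line for each probe set, in panels for class I (35 probe sets), class II (14) and the others (24). The dashed line is the floor of 175.2, and pale lines are probe sets below it on both arrays. Most lines are close to level, and a class I line that climbs steeply to the autograft array is H2-Bl, which reaches 185.3 there.

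H2-K1 encodes a classical class I heavy chain. Its brightest probe set read 7281.3 in the allograft and 4184.4 in the autograft sample, a log2 ratio of 0.80. The other 3 H2-K1 probe sets gave smaller ratios on both sides of 0. The next in brightness read 5718 in the allograft against 4893.5 in the autograft (0.22, and -0.02 with quantile normalization). Another read 2851.5 in the allograft against 2766 in the autograft (0.04, and -0.01 with the intensity trend removed), and the dimmest read 679.3 in the allograft against 876.3 in the autograft (-0.37). As deposited, the 4 ratios spanned 1.17 on the log2 scale and had no common direction.

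H2-D1, the other classical class I heavy chain measured, had 9 probe sets, of which 4 exceeded the floor on both arrays. The brightest read 7716.5 in the allograft and 6035.2 in the autograft (log2 ratio 0.35). The next read 7349.1 in the allograft against 6154.6 in the autograft (0.26), and a further one 2307.9 against 2065 (0.16). These 3 were all higher in the allograft as deposited, but the second of them stood at -0.04 with quantile normalization and at -0.00051 with the intensity trend removed. The dimmest of the 4, the only one without a letter mark in its name, read 418.9 in the allograft and 431.5 in the autograft (-0.04, and above 0 under all 4 other scalings). Another exceeded the floor in the autograft alone (153.7 in the allograft against 187.7), and the remaining 4 read from 12.7 to 99.1 on both arrays. A probe set shared by H2-K1 and H2-D1 read 738.1 in the allograft and 728.9 in the autograft (0.02), and one shared by H2-Q5 and H2-K1 was below the floor on both arrays (124.4 against 171.4).

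An x in a probe set name marks oligonucleotides that can match other transcripts, and 10 of the 18 class I probe sets above the floor carry it. Among the 8 class II probe sets above the floor, 2 carry an x, 3 an s and 1 an a, the last 2 being other letter marks. Whether each class II value comes from 1 gene was not tested. Class I genes are close copies of each other, so their signals may not be separable and a value cannot be assigned to 1 gene with certainty. In the brightest of 20 level bins the median ratio of all probe sets was 0.30, and the 4 class I probe sets there had ratios from 0.22 to 0.80. The brightest probe set of H2-K1 lay 0.50 above that median, while the next of H2-K1 and the 2 of H2-D1 differed from it by -0.08, 0.05 and -0.04. With quantile normalization or with the intensity trend removed, the brightest probe set of H2-K1 stood at 0.59.

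The nonclassical class I genes have narrower tasks, and most of their probe sets were dim. H2-Q10, a secreted class I molecule known from liver, read 278.2 in the allograft and 115.6 in the autograft, below the floor. It was at least 1.59-fold higher in the allograft, and a lower floor, the 25th percentile of all intensities, gave a log2 ratio of 1.27. The probe set of H2-Q9 and H2-Q7, which encode the Qa-2 antigen, read 601.3 in the allograft and 423.1 in the autograft (0.51). The probe set of H2-Q6 and H2-Q8 read 808.3 in the allograft against 857.7 in the autograft (-0.09). One that these genes share with H2-Q4 was below the floor (32.3 in the allograft against 28.6). The Q region probe sets above the floor thus lay on both sides of 0.

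In the T region, the brighter probe set of H2-T23, the Qa-1 molecule seen by the NKG2 receptors of natural killer cells, shared with H2-T-ps, read 2742.5 in the allograft and 2633.8 in the autograft (0.06). The brighter probe set of H2-T9, H2-T22 and H2-T10 read 979.1 in the allograft and 1121 in the autograft (-0.20). Their other one was below the floor (15.8 in the allograft against 15). The brighter probe set of H2-T3, the thymus leukaemia antigen, is marked x and read 230.9 in the allograft and 214 in the autograft (0.11). The dimmer H2-T3 probe set (40.7 in the allograft against 19.2) and one shared with H2-T18 (58.3 against 42.8) were below the floor. H2-M3, which presents formylated peptides of bacteria and mitochondria, read 512.9 in the allograft and 557.1 in the autograft (-0.12). These ratios lay between -0.20 and 0.11. H2-Bl read 14.1 in the allograft and 185.3 in the autograft, just above the floor, so that the bound is only -0.08. All probe sets listed for H2-D4, H2-M9, H2-M10.1, H2-Q2, H2-T18, H2-T24 or H2-Q5 alone were below the floor on both arrays.

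H2-Aa, the class II A alpha chain, stood near 0 in both of its probe sets. The brighter read 7298.8 in the allograft and 7078.5 in the autograft (log2 ratio 0.04) and the dimmer 891.6 in the allograft and 885.8 in the autograft (0.01). The median of all probe sets as bright as the first was 0.30, and the ratio of the first was -0.25 after quantile normalization and -0.23 with the intensity trend removed. H2-Eb1, the E beta chain, read 1770.1 in the allograft and 2184.9 in the autograft (-0.30).

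H2-Ab1 encodes the partner chain of H2-Aa and gave opposing values. All of its 3 probe sets carry a letter mark. The brightest, marked s, read 1090.9 in the allograft and 530.5 in the autograft, a log2 ratio of 1.04. The next, marked a, read 459.8 in the allograft and 601.2 in the autograft (-0.39). The dimmest, marked x, read 219 in the allograft and 297.1 in the autograft (-0.44). The brightest stood 1.43 and 1.48 from the others. Over 3728 pairs of probe sets of one gene on these arrays, 0.858% and 0.671% were at least that far apart. A direction for the gene cannot be read from probe sets that disagree in this way.

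H2-Ea, the E alpha chain, is not expressed in C57BL/6 mice because its promoter is deleted. Its 3 probe sets read 51.9, 31.6 and 25.9 in the allograft and 24.8, 36.7 and 17 in the autograft sample, in the same order of probe sets. All 6 values were below the floor. The level of a strain that expresses H2-Ea was not measured on these arrays.

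The class II molecules that load and edit peptides were dim. H2-DMa, a chain of the peptide exchanger DM, read 289.2 in the allograft and 335.6 in the autograft (-0.21). The brighter probe set of both DM beta genes read 190.5 in the allograft and 280.3 in the autograft (-0.56), the lowest ratio among the class II probe sets. The other probe sets of H2-DMb2, alone or shared with H2-DMb1, were below the floor, with 119.7 and 105 in the allograft against 159.1 and 136.4 in the autograft. H2-Oa, a chain of the DM inhibitor DO, was below the floor too (125.2 in the allograft against 138.6 in the autograft).

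**Figure D2:**
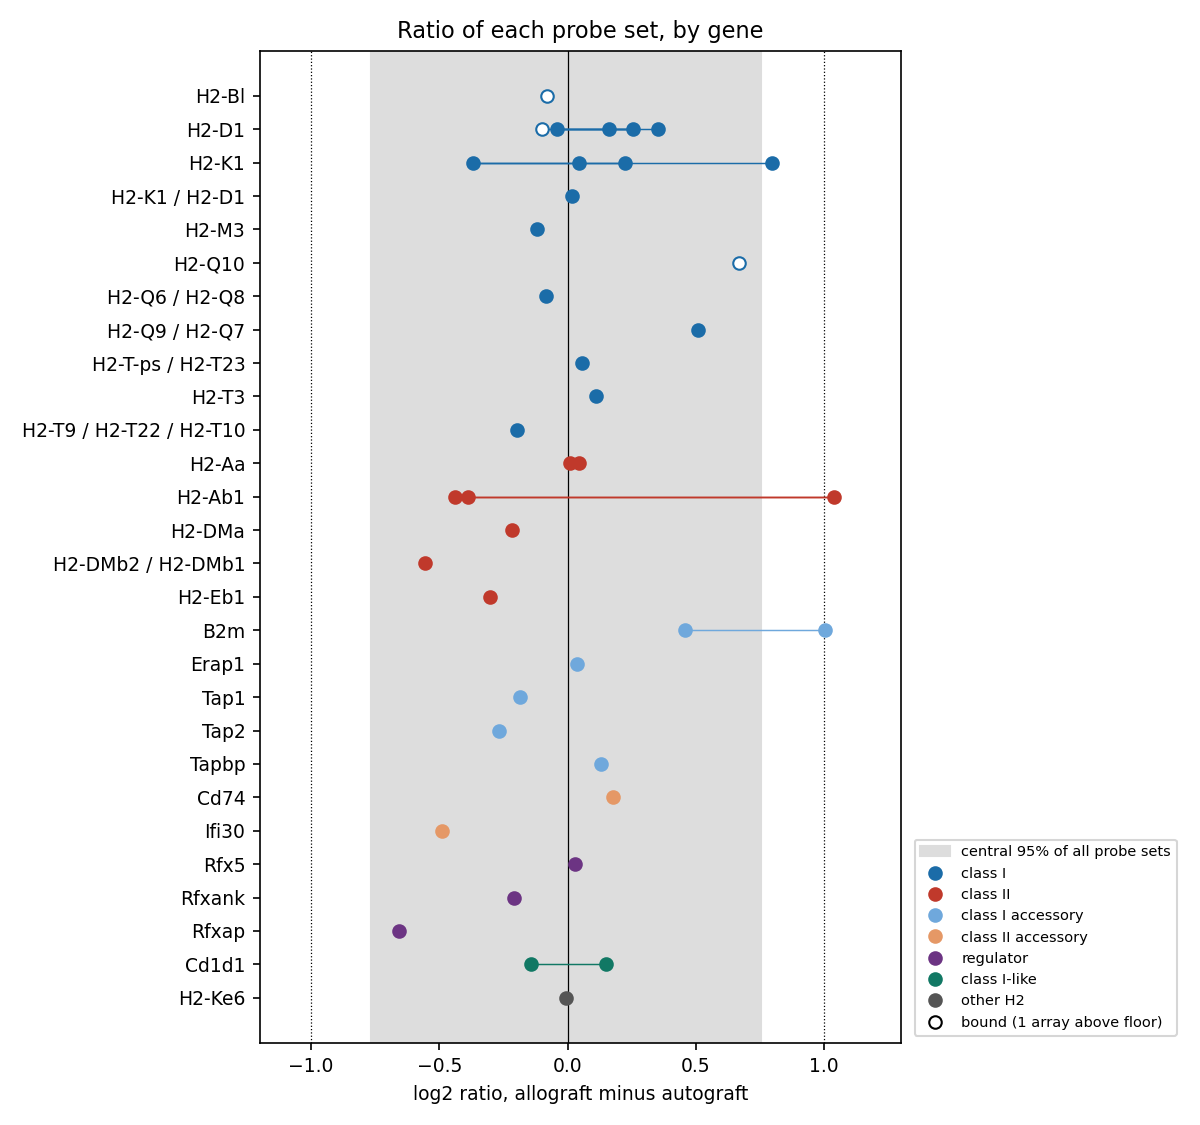
log2 ratio of allograft over autograft for the 40 probe sets above the floor on at least 1 array, 1 row for each gene or set of genes that share a probe set, coloured by class. Open circles are bounds, the grey band holds the central 95% of all probe sets (-0.77 to 0.76), and the dotted lines are 2-fold. Probe sets of H2-Ab1 and H2-K1 lie far apart within a gene, and 1 probe set each of H2-K1, H2-Ab1 and B2m lies outside the band.

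B2m, the light chain of every class I molecule, was higher in the allograft in both of its probe sets. One read 5851 in the allograft and 2919.7 in the autograft (log2 ratio 1.003), and the other 5354.7 in the allograft and 3894.2 in the autograft (0.46). The 2 ratios were 0.54 apart, a distance reached by 20.04% of pairs over all genes. The median of all probe sets in their level bin was 0.10. After quantile normalization the ratios were 0.86 and 0.28, and with the intensity trend removed they were 0.86 and 0.29, so the 2-fold call was lost while both stayed above 0. Beside this, the ratio of 3' to 5' intensity of the beta-actin control, which rises with RNA breakdown, was 1.77 on the allograft array against 1.19 on the autograft array. The same ratio for the Gapdh control was 0.194 on the allograft array against 0.0349 on the autograft array. Its 3' intensity lay far below its 5' intensity on both (1576.8 against 8122.3 in the allograft, 233 against 6670.7 in the autograft). No reading of RNA breakdown was taken from the Gapdh ratios. The part of RNA quality in the B2m values was not tested.

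Both chains of the peptide transporter lay below 0, while tapasin and Erap1 lay slightly above it. Tap1 read 568.8 in the allograft and 646.8 in the autograft (-0.19), and its other 3 probe sets were below the floor. Tap2 read 271.1 in the allograft and 326.7 in the autograft (-0.27). Tapbp read 1918.5 in the allograft and 1752.1 in the autograft (0.13), while its dimmer probe set read at most 48.8. Erap1, the aminopeptidase that trims peptides for class I, read 181.3 in the allograft and 176.9 in the autograft (0.04), close to the floor on both arrays.

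The 2 class II accessory proteins lay on opposite sides of 0. Cd74, the invariant chain, read 4714.8 in the allograft and 4172.9 in the autograft (0.18). Ifi30, a thiol reductase that opens disulfide bonds of antigens in lysosomes, read 3588.1 in the allograft and 5034 in the autograft (-0.49). The median of all probe sets at their level was 0.10.

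Of the regulators, Rfxap, a subunit of the RFX complex that binds the X box of class II promoters, read 306.7 in the allograft and 483.9 in the autograft (-0.66), the lowest ratio of all members. Its partners Rfx5 (362 in the allograft against 354.4 in the autograft, 0.03) and Rfxank (236.8 against 273.4, -0.21) were nearer 0. The other 2 probe sets of Rfxank were below the floor. Ciita, the transactivator on which class II transcription depends, was below the floor in both of its probe sets, with 75.3 and 12.1 in the allograft against 60.1 and 12 in the autograft.

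The class I-like molecule Cd1d1, which presents lipids to natural killer T cells, had probe sets at 0.15 (634.6 in the allograft against 572.6 in the autograft) and -0.14 (459.6 against 507.8). Mr1, which presents vitamin B metabolites, was below the floor, with 55.1 and 118.7 in the allograft against 138.6 and 125.7 in the autograft. H2-Ke6 read 431.8 in the allograft and 433 in the autograft (-0.0040).

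Set side by side, class II lay lower than class I. The median log2 ratio was -0.26 over 8 class II probe sets above the floor and 0.05 over 18 class I probe sets, a difference of -0.31. Class II had 3 ratios above 0 and 5 below (37.5% above 0), and class I had 11 above and 7 below (61.1% above 0). Over all probe sets above the floor 42.5% were above 0 and 57.4% below, with a median of -0.06. The ranges overlapped, from -0.56 to 1.04 in class II and from -0.37 to 0.80 in class I, and the SD across probe sets was 0.51 in class II and 0.30 in class I. Without the brightest H2-Ab1 probe set, a choice made after its value was seen, the class II median was -0.30 over 7 probe sets. Raising the floor to the 75th percentile left fewer probe sets and a difference of -0.07. Only 2 of the 8 class II and 6 of the 18 class I probe sets carry no letter mark, and over these the difference was -0.20.

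**Figure D3:**
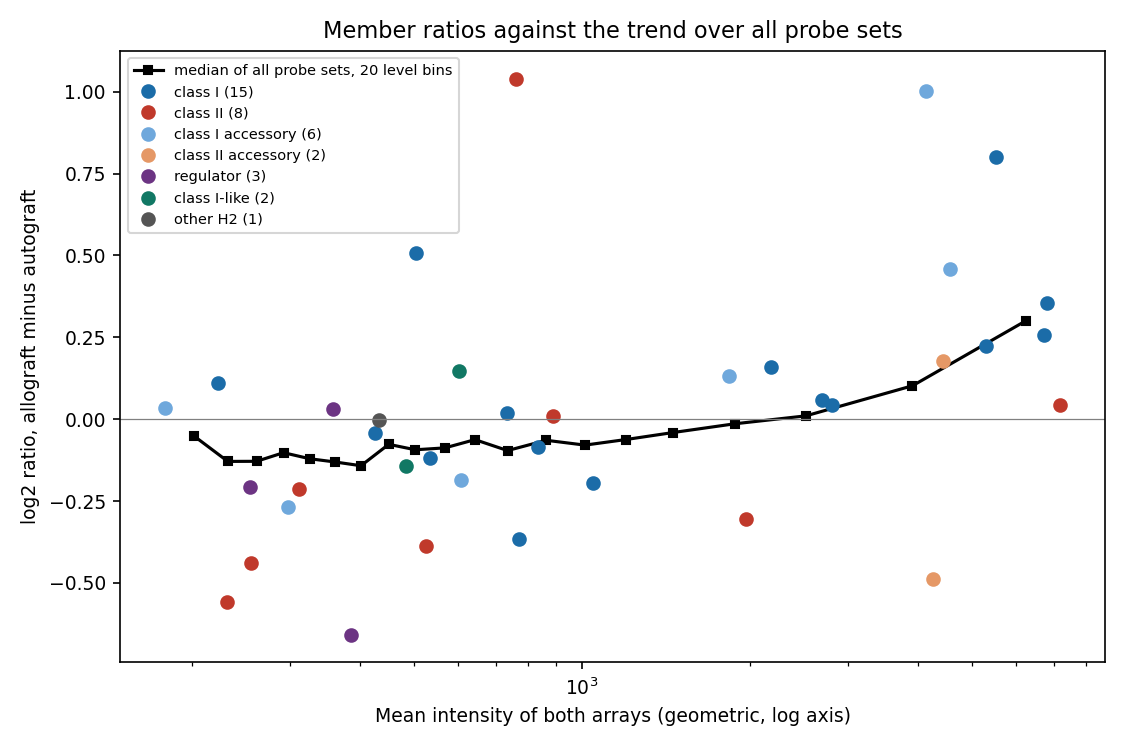
log2 ratio of allograft over autograft against the geometric mean intensity of both arrays (log axis) for the 37 probe sets that exceed the floor on both. Black squares are the medians of all probe sets in 20 level bins, which run from -0.05 in the dimmest bin to 0.30 in the brightest. The class II points lie below the line except for 1 probe set each of H2-Ab1 and H2-Aa.

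Probe sets of one gene could be compared within the members. In 6 genes more than 1 probe set exceeded the floor on both arrays, which gave 18 pairs, 12 of them from H2-D1 and H2-K1. The median distance between the ratios of a pair was 0.35, against 0.27 over 3728 pairs of 1925 genes. In 9 pairs both ratios had the same sign (50%, against 60.1% over all genes), and 7 pairs were over 0.5 apart (38.9%, against 23.6%). The pairs of a gene share probe sets and are not independent. H2-Aa was the closest at 0.03, and H2-Ab1 and H2-K1 gave the widest pairs at 1.48 and 1.17.

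Genes that work with the MHC molecules were read from lists outside the selection above. With lower values set to the floor, 0 of their probe sets above it reached a 2-fold gap. Such a gap is rare on these arrays, with 1.14% of all probe sets above the floor favouring the allograft and 0.742% the autograft. In lists this short, a count of 0 cannot be told from the background. The immunoproteasome, which cuts peptides for class I, and its activator had a median log2 ratio of -0.02 over 4 probe sets, with the activator subunit Psme1 (3234.8 in the allograft against 2831.1 in the autograft) at 0.19, and the immunoproteasome subunits Psmb9 (585.5 in the allograft against 521.9 in the autograft) at 0.17, Psmb8 (883 against 1021.2) at -0.21 and Psmb10 (695.1 against 901.8) at -0.38. The chaperones of peptide loading had a median of -0.06 over 9 probe sets, 3 of them above 0 and 6 below. The proteases of the endosome had a median of 0.16 over 8 probe sets, 5 of them above 0, and Ctss, which removes the invariant chain, read 7674.7 in the allograft and 5690.4 in the autograft (0.43). In the interferon gamma path, which induces both classes, the median was -0.12 over 9 probe sets, 4 of them above 0 and 5 below, Irf1 read 975.5 in the allograft and 1069.3 in the autograft (-0.13), and Ifng was below the floor (61.1 against 66.4). Of 11 probe sets for costimulatory molecules, 1 was above the floor, that of Icosl, in the autograft alone (88.5 in the allograft against 233.4). Its log2 ratio of -0.41 is therefore a bound, and the deposited values lie further apart.

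The cells that carry class II could be followed by their markers. Of 10 B cell marker probe sets 5 were above the floor, with a median of 0.06. Among these 5 ratios, 4 were above 0 and 1 below, from -0.32 for Cd79a to 0.60 for Cd79b. The summed intensity over all 10 came to 2345.5 in the allograft and 2135.5 in the autograft sample. Macrophage markers were above the floor in all 10 probe sets, with a median of -0.10 and sums of 21464.5 in the allograft and 21226.3 in the autograft. Their ratios were above 0 in 3 probe sets and below 0 in 7. The largest term of both sums was a Csf1r probe set with 8219 in the allograft and 5221.1 in the autograft (0.65). The other Csf1r probe sets stood at -0.03 and -0.59, so the near-equal sums do not describe each marker. Of 8 dendritic cell probe sets 2 were above the floor, with sums of 1469.5 in the allograft and 2004.7 in the autograft. The higher of these was Itgax, a leukocyte integrin that macrophages share, which read 793.6 in the allograft and 1340 in the autograft (-0.76). None of 8 T cell probe sets was above the floor, and the highest of them read 106.4. In a sample of whole bone, fewer cells of a type and less RNA per cell cannot be told apart, and the part of these cells in the class II values was not tested. Bone markers were above the floor in 11 of 12 probe sets, with a median of 1.11. Over the 9 above it on both arrays the median was 0.05, with 5 ratios above 0 and 4 below. In 6, all of Col1a1, Col1a2 and Sparc, allograft values were at least 2-fold those of the autograft, against 1.14% of all probe sets. At least 2-fold lower was 1, against 0.742% of all. Dmp1 stood at -0.83, the Phex probe set above the floor at -0.65, and those of Ibsp at 0.05 and -0.56. The summed intensity of the 12 came to 38997.7 in the allograft and 25350.8 in the autograft sample, and the part of this in the MHC values was not tested. The log2 ratio was lowest for Alpl, the alkaline phosphatase of bone, at -1.25, and the highest was that of a Col1a1 probe set, at least 15.6-fold higher in the allograft sample.

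**Figure D4:**
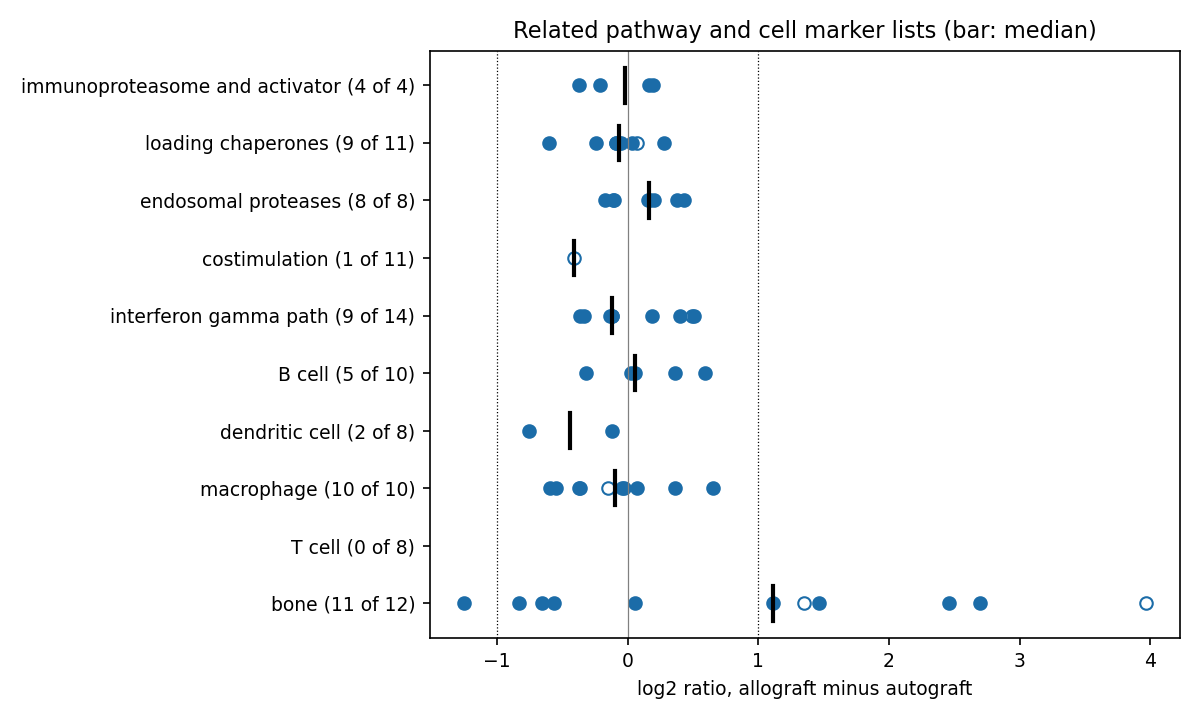
log2 ratio of allograft over autograft for the probe sets above the floor in 5 lists of related genes and 5 lists of cell markers, with the number above the floor of the number on the array. Open circles are bounds, black bars are medians and dotted lines are 2-fold. The plotted ratios of the related lists lie within 2-fold, though bounds among them can stand for wider gaps, and the bone list has the widest spread.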

How the data were processed

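Total RNA of an allograft and an autograft sample of mouse femur was measured on 1 array each. The authors deposited 1 linear intensity for each probe set and array. How they read, background-corrected and scaled the arrays is not given in the sources used here. The 2% trimmed means were 500.2 on the allograft and 500.1 on the autograft array, so the intensities were used as deposited. The 64 control probe sets were left out of medians and shares.

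Genes were named through the platform annotation. Of 45 member symbols, 44 matched the RefSeq gene table of GRCm38.p6 by Entrez identifier, with 0 changed; H2-T9 did not match. The floor was the median of all non-control intensities, 175.2. Lower values were set to it, log2 was taken, and ratios are allograft minus autograft. A ratio with 1 array below the floor is a bound. H2-Ke6 was kept apart from class I although its symbol begins with H2-K, and counting it there is an alternative chosen after seeing the data. Another 2 probe sets that join an H2 symbol with another symbol were not used.

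The members, lists and comparisons were chosen with earlier results of these data known, and the promoter motifs after their matches in the member windows had been seen. The values given are those of every member that exceeded the floor on an array and of H2-Ea, with ranges for the rest. No test was made, since each group has 1 array. The alternatives were 4 scalings (quantile, median, 75th percentile, and a lowess fit that removes the trend of the ratio with intensity), 3 floors, 3 choices of probe sets and 2 thresholds. The counting, quantile and lowess steps were tested on simulated data. The planted changes lay in bright probe sets and were larger than any reported ratio of the members. Calls close to 2-fold or near the floor were therefore not checked by it. The tools were matplotlib 3.10.9, statsmodels 0.14.6, scipy 1.17.1, pandas 2.3.3 and numpy 2.4.6 under Python 3.11.15.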

Additional observations from a re-analysis of the deposited data

How the results depend on the processing

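The count of members at least 2-fold higher, 2 as reported, was 1 with quantile normalization, with the intensity trend removed by lowess, with a 75th percentile floor and with the brightest probe set of each gene. It was 0 without probe sets that carry a letter mark, 0 with the mean of each gene's probe sets and 0 at 4-fold, and 4 at 1.5-fold (with H2-K1 and H2-Q10 added). It was 3 with a 25th percentile floor, where H2-Q10 joined at 1.27, and 2 with no floor, where H2-Q10 took the place of B2m at 1.16. The count of members at least 2-fold lower, 0 as reported, was 2 with a 25th percentile floor (H2-Bl and Mr1), 3 with no floor and 16 added to each value (H2-Bl, Mr1 and a dim probe set of H2-D1), and 1 at 1.5-fold (Rfxap). All of these lower calls but Rfxap rest on values under the floor of 175.2 on at least 1 array. The B2m call was lost with quantile normalization, with lowess, with no floor and with the brightest probe set of each gene, and the H2-Ab1 call with a 75th percentile floor. Both were lost without marked probe sets, with the mean of each gene's probe sets and at 4-fold.

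The class II median, -0.26 as reported, was 0.0094 with a 75th percentile floor, where fewer probe sets are left. The class I median, 0.05 as reported, was -0.062 without marked probe sets, -0.04 with a 25th percentile floor and -0.02 with no floor. The difference of class II minus class I, -0.31 as reported, was -0.069 with a 75th percentile floor, -0.16 with no floor and -0.20 without marked probe sets. It stayed below 0 in every setting run. No other class median or difference moved by more than 0.1. The median distance between probe sets of one gene, 0.35 as reported over 18 pairs, was 0.28 with quantile normalization, 0.28 with lowess and 0.41 with a 75th percentile floor, settings chosen after seeing the data. Over the 4 scalings 34 of 40 members kept the sign of their ratio, and the other 6 were 2 probe sets each of H2-D1 and H2-K1, 1 of H2-Aa and H2-Ke6. The cause of these shifts was not tested beyond what each setting changes.

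No paired analysis was possible because each group has 1 array. For the same reason no sample was left out, and no value has an error from replicates.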
